A study of Homo sapiens with 8 samples.

Results

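The 10 genes described here encode heat shock chaperones of the HSP70, HSP110 and HSP90 families and 1 HSP40 co-chaperone. They were taken by symbol from a table of 60282 genes. They are HSPA1A, HSPA1B, HSPA8, HSPA5, HSPA9, HSPA4, HSPH1, HSP90AA1, HSP90AB1 and DNAJB1. Their RNA was measured in SK-UT-1, an established human uterine leiomyosarcoma (uLMS) cell line. The vehicle group (n = 4 libraries) received DMSO, and the TP-472 group (n = 4 libraries) received 5 µM of TP-472, an inhibitor of the bromodomain proteins BRD9 and BRD7, for 48 h. All libraries came from the same line, so the values describe 1 cell line. The methods speak of biological replicates for the experiments in general, but the labels do not say whether these libraries came from separate cultures. The p-values therefore measure the spread between these libraries, which may be technical. The question was how the chaperone transcripts of uLMS cells differed between inhibitor and vehicle.

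HSP70 proteins bind short hydrophobic stretches of unfolded clients and release them through a cycle of ATP hydrolysis and nucleotide exchange. J-domain (HSP40) proteins such as DNAJB1 deliver clients and stimulate the ATPase. HSP110 proteins and BAG-domain proteins exchange the nucleotide, and HSP90 accepts clients such as steroid receptors and kinases from HSP70 through bridging co-chaperones. Under heat or proteotoxic stress, heat shock factor 1 (HSF1) binds heat shock elements, which are inverted repeats of GAA, upstream of many of these genes. The endoplasmic reticulum (ER) member HSPA5 is known instead for its induction by the unfolded protein response.

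Total estimated counts were 32574716 to 36634184 in the vehicle libraries and 36246466 to 38545695 in the TP-472 libraries. Vehicle replicate 3 stood apart from the rest. Its median Spearman correlation with the other vehicle libraries was 0.914, whereas the other 3 vehicle libraries had 0.988, 0.988 and 0.989 and the TP-472 libraries 0.993 to 0.997. The mean GC content of the transcripts, weighted by counts, was 52.67% in vehicle replicate 3 and 49.9% to 51.2% in the other 7 libraries. Among the 9 members that could be tested, this library was the lowest vehicle library for 5 (HSPA4, HSPA8, HSPA9, HSPH1 and HSP90AB1) and the highest for 3 (HSPA1B, HSPA5 and DNAJB1). The 5 transcripts that were lowest there had a GC content of 38.9% (HSPH1) to 47.7% (HSP90AB1), and the 3 that were highest had 58.7% (HSPA1B), 55.5% (DNAJB1) and 46.0% (HSPA5), the last within the range of the 5. For the members and the lists of related genes, differences and counts of called genes are therefore given with and without this library.

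The cell type label was checked against marker genes. The mesenchymal marker VIM was abundant, with a mean of 2538 CPM (read counts scaled to library size) in vehicle and 1908 CPM with TP-472. Of the 5 mesenchymal markers, all tested, 1 rose and 0 fell, with and without vehicle replicate 3, and this was FN1 at a low level (1.498 and 3.34 CPM, log2 fold change 1.16, adjusted p = 0.00339, edgeR). CALD1 and ACTA2 were the highest smooth muscle markers, with 199.6 and 160.3 CPM in vehicle. The 8 smooth muscle markers together gave 438, 476, 520 and 479 CPM in vehicle and 379, 377, 373 and 370 CPM with TP-472 (here and below, replicates 1 to 4 in order). Of the 6 tested, 2 were called lower and 0 higher, and 3 were lower without vehicle replicate 3, where ACTA2 was added. CALD1 and CNN1 had log2 fold changes of -0.06 and 0.13 (adjusted p = 0.646 and 0.696, edgeR). TAGLN decreased by 0.67 on the log2 scale (adjusted p = 0.00397, edgeR), and by 0.64 without vehicle replicate 3. DES had 3.01 to 3.49 CPM in vehicle and at most 0.777 CPM with TP-472, and thus passed the filter on low counts only through the vehicle libraries. The part of these shifts in the chaperone values was not tested. The defining late markers MYH11 and MYOCD held at most 10 and 8 counts in any library, although MYH11 was higher in every treated library (0.194 to 0.264 CPM) than in any vehicle library (at most 0.0281 CPM). The defining immune markers CD3E and PTPRC held at most 0 and 1 counts. The 6 immune markers together gave 7.15 to 8.54 CPM in vehicle and 9.83 to 13 CPM with TP-472, mostly from CD68, which is not restricted to immune cells and was the 1 that could be tested (log2 fold change 0.47, adjusted p = 0.0307, and 0.48 without vehicle replicate 3, edgeR, under the fold limit). The 4 endothelial markers together gave 0.0554 to 0.144 CPM in vehicle and 0.414 to 0.581 CPM with TP-472, higher in every treated library. Of 3 tested epithelial markers 1 rose and 1 fell, with and without vehicle replicate 3. KRT18 went from 7.39 to 15.6 CPM (log2 fold change 1.08, adjusted p = 0.000726, edgeR), and KRT19 from 8.88 to 4.93 CPM (log2 fold change -0.85, adjusted p = 0.0151, edgeR).

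Among the chaperones themselves, 4 of the 9 tested rose with TP-472 and 0 fell. HSPA8 rose 2.02-fold, HSPH1 1.65-fold, HSPA9 1.57-fold and HSPA4 1.51-fold. A gene was called when edgeR's quasi-likelihood test gave a Benjamini-Hochberg adjusted p under 0.05 over all 14073 tested genes and the fold change was over 1.5. By this rule 12.0% of all tested genes were called higher and 14.9% lower, against 44.4% and 0% of the tested members. The members were chosen with earlier results of these data known. This and the following comparisons with all tested genes are therefore descriptive. The median log2 fold change was 0.52 over the members and -0.03 over all tested genes. Without vehicle replicate 3, the calls were 2 higher (HSPA8 and HSPH1) and 0 lower beside a background of 12.0% higher and 13.4% lower, and the members' median was 0.46. The higher calls were also 2 without TP-472 replicate 1 or TP-472 replicate 3, where 9.68% and 9.26% of all tested genes were called higher. After removal of each library's own trend of level with GC content, an alternative chosen after seeing the data, 2 members were called higher (HSPA8 and DNAJB1). This stood beside 13.3% of all genes tested there. By the adjusted p alone, 6 members were higher, beside 17.2% of all tested genes, and the 2 added were HSP90AB1 and DNAJB1. Leaving out vehicle replicate 3, the 6 higher members stood beside a background of 28.6%. The count by the adjusted p alone was 3 without TP-472 replicate 1 or TP-472 replicate 3 (11.4% and 11% of all tested genes) and 4 without vehicle replicate 1, TP-472 replicate 2 or TP-472 replicate 4 (12.6%, 11.3% and 12.8%). HSP90AB1 was lost in each of these 5 fits, with adjusted p of 0.0799 to 0.108 (edgeR).

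For 6 of the 9 tested members, 66.7%, each of the 4 TP-472 libraries lay above each of the 4 vehicle libraries, beside 23.8% of all tested genes. These shares were not taken without vehicle replicate 3, and leaving out a library can raise but not lower them. HSPA1A, which was under the expression filter, did so too. In these bulk libraries, a change in the number of cells with a transcript and a change in the transcript per cell cannot be told apart.

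**Figure D1:**
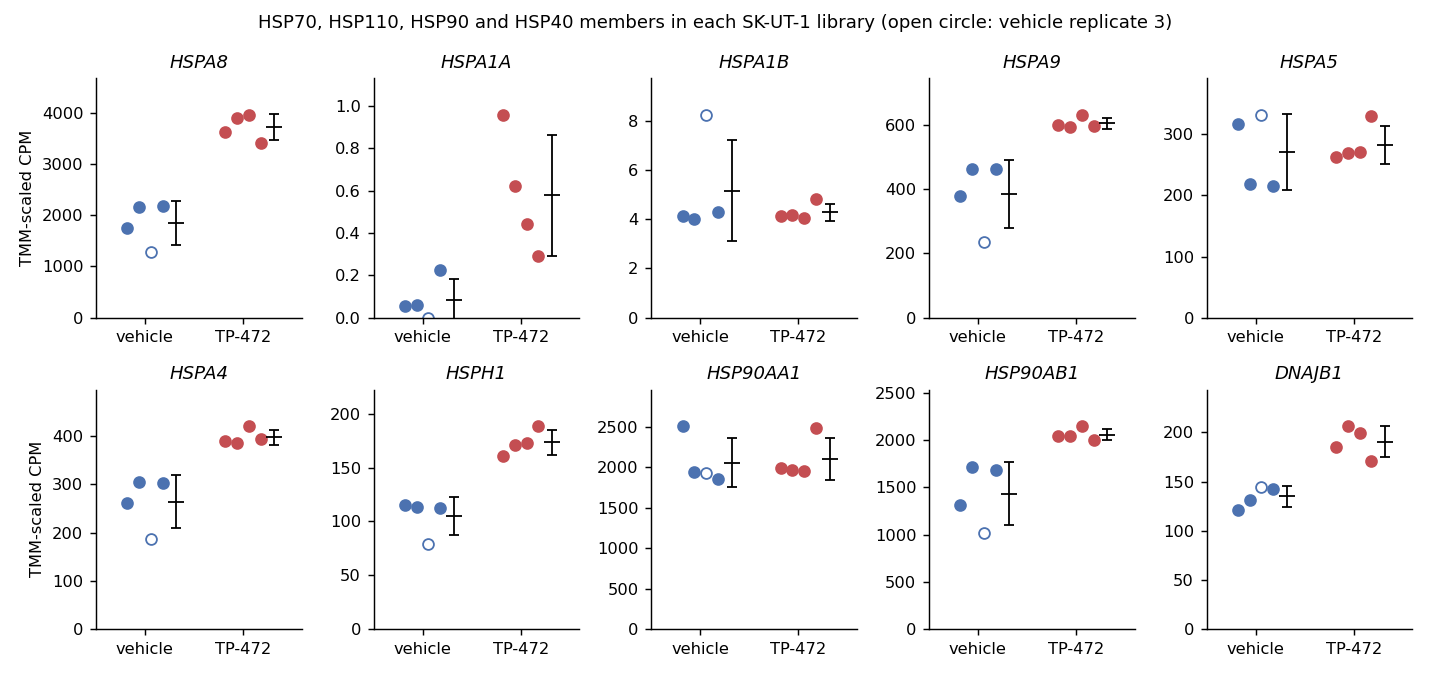
Points give the level of each of the 10 genes in each library (y axis, CPM scaled by the trimmed mean of M-values, linear and starting at 0), with vehicle in blue and TP-472 in red, vehicle replicate 3 as an open circle, and bars for the mean and SD (n = 4). For HSPA8, HSPA9, HSPA4, HSPH1, HSP90AB1, DNAJB1 and the sparsely counted HSPA1A, all TP-472 points lie above all vehicle points, whereas for HSPA1B, HSPA5 and HSP90AA1 the groups overlap.

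HSPA8 (HSC70), the constitutive cytosolic HSP70, is encoded at chr11:123057489-123063230 on the minus strand of GRCh38 (GENCODE release 29, as for the gene positions that follow). Its level was 1743, 2167, 1288 and 2188 CPM in vehicle and 3625, 3907, 3962 and 3404 CPM with TP-472. The lowest treated library was well above the highest vehicle library, and vehicle replicate 3 was the lowest of all. The group means were 1847 ± 425 (SD, n = 4) and 3724 ± 260 CPM (SD, n = 4). This gave a log2 fold change of 1.01 (SE 0.18, adjusted p = 0.0036, edgeR), and 0.87 without vehicle replicate 3 (adjusted p = 0.000171, edgeR).

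Heat shock elements were sought in windows from 250 bases before to 50 bases after each RefSeq start (assembly GRCh38.p14). The search used GAANNTTC and TTCNNGAA, which are both forms of a two-unit repeat and each read the same on both strands, and the three-unit forms GAANNTTCNNGAA and TTCNNGAANNTTC, which are the reverse complements of each other and contain both two-unit forms. Of 35116 RefSeq promoter windows of this length, 6.77% held GAANNTTC, 7.74% held TTCNNGAA and 0.49% held a three-unit form. A match is a description of letters, not of a bound site. All 10 members had a window, and 3 of them had several, because of alternative starts. A three-unit form was found for 3 members, HSPA8, HSP90AB1 and HSP90AA1, and for HSP90AB1 and HSP90AA1 in only 1 of their 3 and 2 windows, so that positions refer to 1 of their alternative starts. Those windows of HSP90AB1 and HSP90AA1 lie inside the gene, downstream of their other windows. A negative position there is upstream of that start only. The HSPA8 window, too, lies inside the gene position given above. The 30-base stretches below are shown because they hold the element that this gene family is known for, with the match in capitals and each read 5′ to 3′ on the gene's strand.
HSPA8, chr11:123062170-123062199, minus strand, match starting at -55: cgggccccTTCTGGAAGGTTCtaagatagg
HSPA8, chr11:123062345-123062374, minus strand, match starting at -230: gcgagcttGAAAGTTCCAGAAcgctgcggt
HSP90AB1, chr6:44247823-44247852, plus strand, match starting at -112: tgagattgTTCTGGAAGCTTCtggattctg
HSP90AB1, chr6:44247770-44247799, plus strand, match starting at -165: ggagcaggTTCTGGAAGATTCatgggctcc
HSP90AA1, chr14:102087111-102087140, minus strand, match starting at -88: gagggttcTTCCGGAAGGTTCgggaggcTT
The last 2 capitals of the HSP90AA1 stretch begin a further two-unit match. Of the 3 genes with a three-unit form, HSPA8 rose, HSP90AB1 passed the adjusted p but not the fold limit, and HSP90AA1 passed neither.

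HSPA1A and HSPA1B are the stress-inducible HSP70 genes, placed side by side in the major histocompatibility complex region at chr6:31815464-31817946 and chr6:31827735-31830255, both on the plus strand and each with a single exon. Their two-unit heat shock elements stood in near-identical surroundings, shown here to let the paralogs be compared.
HSPA1A, chr6:31815426-31815455, plus strand, match starting at -106: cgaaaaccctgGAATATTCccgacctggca
HSPA1B, chr6:31827622-31827651, plus strand, match starting at -105: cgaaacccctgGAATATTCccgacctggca
Much of the transcripts is identical too. Of the 31-base words of the HSPA1A transcript, 74.28% also occur in HSPA1B, so the division of reads between the pair is uncertain, and they were also summed.

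HSPA1A held 2.30, 2.33, 0 and 8.42 estimated counts in vehicle and 36.6, 21.6, 16.4 and 11.2 with TP-472. The treated libraries were all above the vehicle libraries, and an exact permutation test (two-sided) gave p = 0.0286, the lowest value possible with 4 against 4 libraries. All were under the filter of 1 CPM, and the count of 0 in vehicle replicate 3 allows up to 3 counts, so no fold change is given. HSPA1B had 4.13, 3.995, 8.25 and 4.30 CPM in vehicle and 4.12, 4.17, 4.05 and 4.81 CPM with TP-472. Vehicle replicate 3 was the highest by far, and the other 7 libraries lay between 3.995 and 4.808 CPM, with TP-472 replicate 4 the highest of them. The log2 fold change of HSPA1B was -0.27 (SE 0.25, adjusted p = 0.412, edgeR) and 0.05 without vehicle replicate 3 (adjusted p = 0.738, edgeR).

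The sum of HSPA1A and HSPA1B, which does not depend on how reads were split within the pair, was 4.18, 4.05, 8.25 and 4.53 CPM in vehicle and 5.07, 4.79, 4.50 and 5.10 CPM with TP-472. The transcript AL671762.1, which overlaps HSPA1B and holds 35.77% of its 31-base words, lies outside the sum. It was listed at 0 in 7 libraries and at 50.7 counts in vehicle replicate 3, where the pair had 285.4 counts. The groups of the sum overlapped, and the log2 fold change was -0.11 with a 95% interval of -0.65 to 0.43 (adjusted p = 0.734, edgeR). Without vehicle replicate 3 it was 0.19, with an interval of -0.06 to 0.45 (adjusted p = 0.168, edgeR). Both intervals exclude the 2.02-fold difference of HSPA8. HSPA1L, the third gene of this cluster, was under the filter with 19 to 34 counts per library.

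HSPA6, a strictly inducible HSP70 gene absent from rodents, was taken from the list of related genes. Its level was 1.64, 2.21, 2.20 and 1.57 CPM in vehicle and 5.82, 7.41, 6.74 and 7.19 CPM with TP-472, with no overlap. It rose 3.56-fold (log2 fold change 1.83, SE 0.18, adjusted p = 0.000213, edgeR), and without vehicle replicate 3 the log2 fold change was 1.91 (adjusted p = 1.5e-05, edgeR). Of its 31-base words, 56.73% are shared with another gene, mostly the pseudogene HSPA7, which held at most 1 count in a library. Its promoter window, too, had a three-unit element, shown because this low-level gene had the largest fold change among the 9 tested HSP70, HSP110 and HSP90 genes outside the 10.
HSPA6, chr1:161524458-161524487, plus strand, match starting at -74: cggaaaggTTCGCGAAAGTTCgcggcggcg
Vehicle replicate 3 did not stand apart for this gene, as its level of 2.20 CPM lay within the range of the other vehicle libraries.

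HSPA5 (BiP or GRP78), the HSP70 of the ER, is encoded at chr9:125234853-125241330 on the minus strand. It had 317, 218.7, 331.9 and 215.3 CPM in vehicle and 263.3, 269, 271.3 and 329.7 CPM with TP-472. The vehicle libraries formed a high pair and a low pair, and 3 treated libraries lay between the pairs while TP-472 replicate 4 lay within the high pair. For HSPA5 the log2 fold change was 0.07, with a 95% interval of -0.32 to 0.45 (adjusted p = 0.781, edgeR), and 0.18 without vehicle replicate 3, with an interval of -0.14 to 0.50 (adjusted p = 0.308, edgeR). Its promoter window had no heat shock element but held the ER stress response element, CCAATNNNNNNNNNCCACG, which was sought on both strands and occurred in 27 of the 35116 windows (0.077%).
HSPA5, chr9:125241385-125241414, minus strand, match starting at -66: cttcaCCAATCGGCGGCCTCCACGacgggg

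HSPA9 (mortalin), the HSP70 of the mitochondrial matrix that takes part in protein import, lies at chr5:138553756-138575724 on the minus strand. It had 379.2, 462.7, 237 and 461.4 CPM in vehicle and 600.3, 592.6, 631.5 and 596.8 CPM with TP-472. The treated libraries were close together and above each vehicle library. HSPA9 rose by a log2 fold change of 0.65 (SE 0.20, adjusted p = 0.0315, edgeR). It was 0.48 without vehicle replicate 3 (adjusted p = 0.000994, edgeR), which is under the limit of 1.5-fold. The call also failed, on the adjusted p, without vehicle replicate 1 or without any 1 of the 4 TP-472 libraries. The 13 genes encoded in mitochondrial DNA together had 3060, 2260, 3540 and 2130 CPM in vehicle and 1770, 1660, 1580 and 2110 CPM with TP-472, and 5 of them (38.5%) were called lower and 0 higher, with and without vehicle replicate 3, beside 14.9% and 13.4% of all tested genes called lower.

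HSPA4 (APG-2) and HSPH1 (HSP105) are HSP110 proteins, large relatives of HSP70 that act on it as nucleotide exchange factors. HSPA4, at chr5:133051962-133106449 on the plus strand, had 260.5, 305.8, 187.5 and 302.2 CPM in vehicle and 390.6, 385.1, 420.5 and 395.1 CPM with TP-472. No treated library was as low as any vehicle library. HSPA4 rose by a log2 fold change of 0.59 (SE 0.16, adjusted p = 0.0188, edgeR), just over the limit, and without vehicle replicate 3 the value was 0.46 (adjusted p = 0.000683, edgeR), under it. The call also failed, on the adjusted p, without TP-472 replicate 1 (0.0505, edgeR) or TP-472 replicate 3 (0.0579, edgeR).

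HSPH1, at chr13:31134974-31162388 on the minus strand, had 115.4, 113.4, 78.7 and 112.5 CPM in vehicle and 161.2, 171.2, 173.1 and 188.6 CPM with TP-472. Apart from vehicle replicate 3, the vehicle libraries lay between 112.5 and 115.4 CPM, and all treated libraries were higher. HSPH1 rose by a log2 fold change of 0.72 (SE 0.14, adjusted p = 0.00457, edgeR), and by 0.61 without vehicle replicate 3 (adjusted p = 5.6e-05, edgeR). HSPA4 and HSPH1 had no heat shock element in their windows, in contrast to 7 members with at least a two-unit form. These letters were absent from a 300-base window only.

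The cytosolic HSP90 pair comprises HSP90AA1 (HSP90α), the form known as stress-inducible, and HSP90AB1 (HSP90β), the form known as constitutive. HSP90AA1, at chr14:102080738-102139699 on the minus strand, had 2509, 1943, 1932 and 1851 CPM in vehicle and 1990, 1973, 1953 and 2486 CPM with TP-472. In each group 3 libraries lay close together and 1 was higher, which was replicate 1 in vehicle and replicate 4 with TP-472. The log2 fold change was 0.03 with a 95% interval of -0.30 to 0.36 (adjusted p = 0.891, edgeR). Without vehicle replicate 3 the interval was -0.30 to 0.30 (adjusted p = 0.998, edgeR).

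HSP90AB1, at chr6:44246166-44253888 on the plus strand, had 1315, 1720, 1015 and 1686 CPM in vehicle and 2040, 2049, 2148 and 2002 CPM with TP-472. The groups did not overlap. HSP90AB1 had a log2 fold change of 0.52 (SE 0.18), and the adjusted p of 0.0437 (edgeR) was under 0.05, but the difference of 1.44-fold was under the limit. Leaving out vehicle replicate 3 gave 0.39 (adjusted p = 0.011, edgeR).

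DNAJB1 (HSP40), the J-domain partner of cytosolic HSP70, lies at chr19:14514770-14529770 on the minus strand. It had 121.3, 131.1, 144.8 and 142.5 CPM in vehicle and 185.2, 206.3, 199.4 and 171.4 CPM with TP-472. Unlike the 5 members above, vehicle replicate 3 was here the highest vehicle library, and the groups still did not overlap. The log2 fold change was 0.50 (SE 0.11, adjusted p = 0.00747, edgeR), a 1.41-fold difference under the limit, and 0.53 without vehicle replicate 3 (adjusted p = 0.000513, edgeR). One of its windows, inside the gene and downstream of another of its starts, held a pair of two-unit elements, shown for comparison with the HSP70 promoters.
DNAJB1, chr19:14518456-14518485, minus strand, match starting at -77: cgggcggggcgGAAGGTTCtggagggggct
DNAJB1, chr19:14518426-14518455, minus strand, match starting at -47: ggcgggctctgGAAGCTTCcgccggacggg

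**Figure D2:**
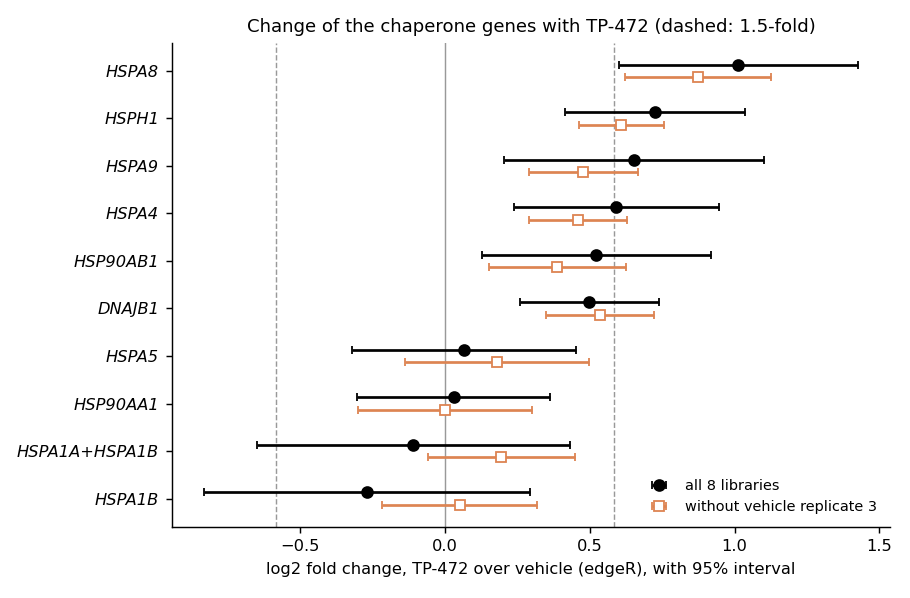
Log2 fold changes of TP-472 over vehicle (x axis) with 95% intervals from edgeR, for all 8 libraries (filled circles) and without vehicle replicate 3 (open squares), with dashed lines at 1.5-fold. HSPA8 and HSPH1 lie beyond the dashed line in both fits, HSPA9 and HSPA4 only with all 8 libraries, and the intervals of HSPA5, HSP90AA1, HSPA1B and the HSPA1A and HSPA1B sum include 0.

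The 10 genes together made up 0.709%, 0.671%, 0.554% and 0.681% of all counts in vehicle and 0.928%, 0.9%, 0.94% and 1% with TP-472. HSPA8 supplied 25.8%, 30.7%, 24.7% and 31.4% of the members' summed CPM in vehicle and 39.1%, 40.9%, 40.6% and 35.5% with TP-472. Its share was therefore higher in every treated library than in every vehicle library. These shares follow from the HSPA8 values above and are no separate support for them.

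Levels of different genes were compared per kilobase of transcript. In vehicle, HSPA8 was highest at 801 ± 184 CPM per kilobase (SD, n = 4), followed by HSP90AA1 at 609 ± 89.6 and HSP90AB1 at 549 ± 128, and the ranges of neighbours in this order overlapped. HSPA9 (102), HSPA5 (69.3), DNAJB1 (59.6) and HSPA4 (54.7 CPM per kilobase) came next, again with overlapping ranges between neighbours, then HSPH1 at 20.2, HSPA1B at 2.05 and HSPA1A at 0.034 CPM per kilobase. Without vehicle replicate 3 the top 3 were 882 ± 109, 622 ± 105 and 602 ± 85.9 CPM per kilobase (SD, n = 3) in the same order, while HSPA5 (64), HSPA4 (60) and DNAJB1 (58.1) stood in another order.

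With TP-472 the order at the top was HSPA8 (1620 ± 113 CPM per kilobase, SD, n = 4), HSP90AB1 (788 ± 23.8) and HSP90AA1 (622 ± 76.2), and the ranges of these 3 no longer overlapped. In vehicle, HSP90AB1 was already above HSP90AA1 in replicates 2 and 4 (658.4 against 575.0 and 645.2 against 547.9 CPM per kilobase), so the vehicle order of this pair rested on replicates 1 and 3. DNAJB1 (84.2), HSPA4 (82.5) and HSPA5 (72.5 CPM per kilobase) overlapped with their neighbours. The inducible HSPA1B stayed at 1.70 CPM per kilobase. Reads shared with pseudogenes could affect these levels, as 39.22% of the 31-base words of HSPA8, 37.53% of those of HSP90AA1 and 35.69% of those of HSP90AB1 occur in another gene. The processed pseudogenes listed under their names took few counts, with at most 0.056% of the parent's count for the 17 of HSPA8, 0.006% for the 4 of HSP90AA1 and 0.208% for the 5 of HSP90AB1.

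**Figure D3:**
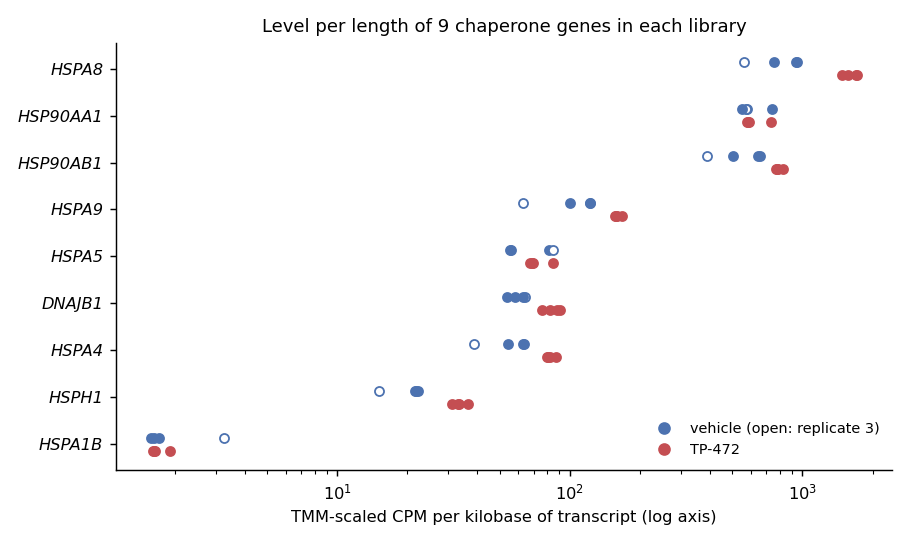
Level of 9 of the genes per kilobase of transcript in each library (x axis, CPM per kilobase, log scale), with vehicle in blue, vehicle replicate 3 as an open circle and TP-472 in red. HSPA8, HSP90AA1 and HSP90AB1 form the top group in vehicle, HSPA8 separates from both with TP-472, and HSPA1B stays near 2 CPM per kilobase (HSPA1A is left out because of its count of 0).

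To compare inducible with constitutive paralogs without a library scaling, 2 ratios were taken within each library. The ratio of HSP90AA1 to HSP90AB1 was 1.91, 1.13, 1.90 and 1.10 in vehicle and 0.976, 0.963, 0.909 and 1.24 with TP-472. Vehicle replicates 1 and 3 were high, and TP-472 replicate 4 overlapped the other vehicle libraries. The difference in log2 ratio was -0.52 (two-sided exact permutation test, p = 0.0857, adjusted over the 2 ratios 0.0857), and -0.39 without vehicle replicate 3 (exact p = 0.114).

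The ratio of HSPA1A plus HSPA1B to HSPA8 was 0.0024, 0.00187, 0.0064 and 0.00207 in vehicle and 0.0014, 0.00123, 0.00113 and 0.0015 with TP-472. All treated libraries were below all vehicle libraries. The difference in log2 ratio was -1.09 (exact permutation p = 0.0286, the smallest this design allows, adjusted 0.0571), so it did not pass after adjustment. It was -0.69 without vehicle replicate 3 (exact permutation p = 0.0286, adjusted 0.0571). HSPA8 is the denominator, so this ratio follows in part from the HSPA8 values above and is no separate support for them.

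**Figure D4:**
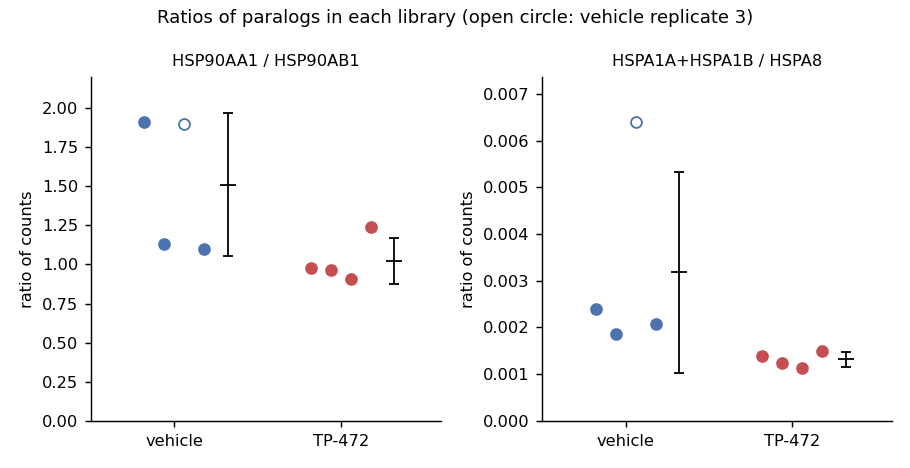
Ratio of counts of HSP90AA1 to HSP90AB1 (left) and of HSPA1A plus HSPA1B to HSPA8 (right) in each library, on linear axes starting at 0, with vehicle in blue, vehicle replicate 3 as an open circle, TP-472 in red, and bars for the mean and SD (n = 4). The left ratio overlaps between groups, and the right ratio is lower in all 4 treated libraries.

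Outside the 10 genes, 116 related chaperone and co-chaperone genes were counted in lists, of which 104 could be tested. Of these, 22 rose (21.2%) and 6 fell (5.77%), beside 12.0% and 14.9% of all tested genes, with a median log2 fold change of 0.26. Without vehicle replicate 3, 16 rose (15.4%) and 7 fell (6.73%), beside 12.0% and 13.4% of all tested genes, so the share that rose was nearer to the background. The median was then 0.24. Without TP-472 replicate 1, 3 or 4, 2 fell in each fit, beside 10.6%, 9.86% and 11.5% of all tested genes. In the same fits 17, 15 and 17 rose, beside 9.68%, 9.26% and 10.2%. The lists overlap, so a gene may be counted in several of them.

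Among the other HSP70, HSP110 and HSP90 genes, 2 of 9 tested rose and 0 fell (median 0.21), and the same counts held without vehicle replicate 3 (median 0.22). Besides HSPA6, this was HSPA14, a ribosome-associated HSP70, which rose by 1.01 (adjusted p = 0.0183, edgeR), and by 0.78 without that library. A second row with the symbol HSPA14 overlaps it, so its reads may be divided, but that row, too, was higher in every treated library, with 2641 to 2961 counts against 1214 to 1629. The ER paralog HSP90B1 (GRP94) had a log2 fold change of 0.03 (adjusted p = 0.92, edgeR) and the mitochondrial paralog TRAP1 -0.15 (adjusted p = 0.48, edgeR), with the signs turned without that library (-0.15 and 0.03, adjusted p = 0.114 and 0.76, edgeR); both were named after their values were seen, to complete the HSP90 family.

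Of the type A and B J-domain genes, 4 of 12 tested rose and 0 fell (median 0.30), and 2 rose without vehicle replicate 3 (median 0.41). DNAJA1, which had 225.7 ± 81 CPM in vehicle and 432.7 ± 21.7 CPM with TP-472 (SD, n = 4), had the largest log2 fold change of them, 0.94 (adjusted p = 0.0182, edgeR), and 0.74 without that library. DNAJB6, known to suppress aggregation, rose by 0.74 (adjusted p = 0.00102, edgeR), and by 0.68 without it. DNAJA2 (0.78) and the ER protein DNAJB11 (0.70) were called with all 8 libraries but were at 0.56 and 0.50 without vehicle replicate 3, under the limit. DNAJB13 was not tested, with at most 9 counts in a library.

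Of the type C J-domain genes, 3 of 27 tested rose (11.1%) and 1 fell (median 0.19), close to the background for the higher calls. Without vehicle replicate 3, 3 rose and 4 fell (median 0.09). DNAJC2, a ribosome-associated factor, rose by 0.96 (adjusted p = 0.000589, edgeR) and DNAJC25 by 0.92, with 0.91 and 0.82 without that library. DNAJC6 (auxilin), which uncoats clathrin vesicles together with HSPA8, had 0.0562 to 0.582 CPM in vehicle and 1.71 to 2.67 CPM with TP-472. It passed the filter only through the treated libraries, so its call in this count follows in part from the filter. DNAJC4 decreased by 1.22 on the log2 scale, and by 0.69 without vehicle replicate 3. DNAJC15 and DNAJC22 were not tested.

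The nucleotide exchange factors were split, as 3 of 10 rose and 2 fell (median 0.37), and without vehicle replicate 3, 3 rose and 1 fell (median 0.34). GRPEL1, the exchange factor of mitochondrial HSPA9, rose 2.36-fold (log2 fold change 1.24, adjusted p = 0.000587, edgeR, and 1.13 without that library), with vehicle libraries at 34.6 to 56.1 CPM and treated libraries at 105.7 to 113.7 CPM. BAG1, an exchange factor of cytosolic HSP70, rose by 0.96 (adjusted p = 0.00024, edgeR) and BAG5 by 0.76, with 0.99 and 0.63 without it. SIL1, the exchange factor of HSPA5, decreased by 0.72 on the log2 scale (adjusted p = 0.00684, edgeR) and by 0.60 without it, and BAG6 decreased by 0.65 but by 0.37 without vehicle replicate 3, under the limit.

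Of the HSP90 co-chaperones, 6 of 20 rose and 1 fell (median 0.43), and without vehicle replicate 3, 3 rose and 0 fell (median 0.43), with SGTA (0.29 with all libraries, 0.60 without that one) added and 4 of the 6 lost. CHORDC1 rose by 0.92 (adjusted p = 0.00784, edgeR) and FKBP4 (FKBP52), an immunophilin of steroid receptor complexes, by 0.66 (adjusted p = 0.00181, edgeR), and both stayed past the limits without that library. CACYBP (0.75), PPID (0.70) and TTC4 (0.64) rose with all 8 libraries and were under the fold limit without it. FKBP8 decreased by 0.73, and by 0.52 without it.

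The heat shock factor list had 4 tested genes, of which 0 rose and 1 fell, with and without vehicle replicate 3 (medians -0.45 and -0.28). HSF4 decreased by 1.43 on the log2 scale (adjusted p = 0.0227, edgeR) at a low level, 3.22 ± 2.12 CPM in vehicle and 1.19 ± 0.18 CPM with TP-472 (SD, n = 4), and by 0.86 without vehicle replicate 3. HSF1, HSF2 and HSBP1 complete the list and were named after their values were seen. The log2 fold change of HSF1 was -0.74 (SE 0.34, adjusted p = 0.112, edgeR) and -0.22 without vehicle replicate 3 (adjusted p = 0.0657, edgeR). Its level was 35.58 to 106.5 CPM in vehicle and 31.76 to 35.04 CPM with TP-472, slightly below every vehicle library. HSBP1 was above every vehicle library in all treated libraries, and the groups of HSF2 overlapped. HSF2 had -0.16 and HSBP1 0.48, with adjusted p of 0.571 and 0.174 (edgeR), and without that library -0.34 and 0.25, with adjusted p of 0.0152 and 0.046 (edgeR), under the fold limit.

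Known heat shock response genes outside the 10 were counted too, of which 7 of 23 tested rose and 1 fell (median 0.51), and 6 rose and 1 fell without vehicle replicate 3 (median 0.38). Besides HSPA6, DNAJA1, CHORDC1, CACYBP, DNAJB6 and FKBP4, ZFAND2A (AIRAP) rose by 1.41 (adjusted p = 0.000705, edgeR, and 1.29 without that library), from 2.98 to 7.90 CPM. SERPINH1 (HSP47), the collagen chaperone of the ER, decreased by 1.00 on the log2 scale (adjusted p = 0.00148, edgeR) and by 0.86 without it, from 362 ± 69.6 to 181.5 ± 15.5 CPM (SD, n = 4). UBB was not tested, with at most 1 count in a library.

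Among the small heat shock proteins, 1 of 3 tested rose, with and without vehicle replicate 3. This was HSPB8, with 0.787 to 1.65 CPM in vehicle and 2.03 to 2.38 CPM with TP-472, which reached the filter only with the treated libraries. HSPB1 (HSP27), the most abundant of the 3 and named after its values were seen, had 84.3 to 274 CPM in vehicle and 63.4 to 73.3 CPM with TP-472, below every vehicle library. Its log2 fold change was -0.98 (adjusted p = 0.0655, edgeR), and -0.37 without vehicle replicate 3 (adjusted p = 0.00101, edgeR), under the fold limit. HSPB11, the third, had 0.00 (adjusted p = 0.997, edgeR), and -0.22 without that library (adjusted p = 0.0367, edgeR), under the fold limit. The median of the 3 was 0.00, and -0.22 without it. CRYAB, HSPB2, HSPB3, HSPB6, HSPB7 and HSPB9 held at most 9 counts in any library. The mitochondrial pair HSPD1 (HSP60) and HSPE1 (HSP10) had log2 fold changes of 0.57 and 0.61 that did not pass the test (adjusted p = 0.082 and 0.19, edgeR), and 0.37 and 0.33 without vehicle replicate 3 (adjusted p = 0.0125 and 0.0485, edgeR), under the fold limit.

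By compartment, 3 of 17 ER chaperones rose (17.6%) and 1 fell (median 0.21), and without vehicle replicate 3, 1 rose (5.88%) and 1 fell (median 0.22), beside a background of 12.0% higher in both fits. Unlike the lists above, those by compartment also hold members, HSPA5 among the ER chaperones and HSPA9 among the mitochondrial ones. MANF rose by 0.71 (adjusted p = 0.00498, edgeR; 0.60 without that library), SDF2L1 by 0.64 (0.58 without it, under the limit), DNAJB11 by the value given above, and SIL1 fell. Of 12 tested mitochondrial chaperones 2 rose (16.7%), HSPA9 and GRPEL1, and 0 fell (median 0.42), and without vehicle replicate 3 only GRPEL1 did (8.33%, median 0.34). No test compared one list with another.

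**Figure D5:**
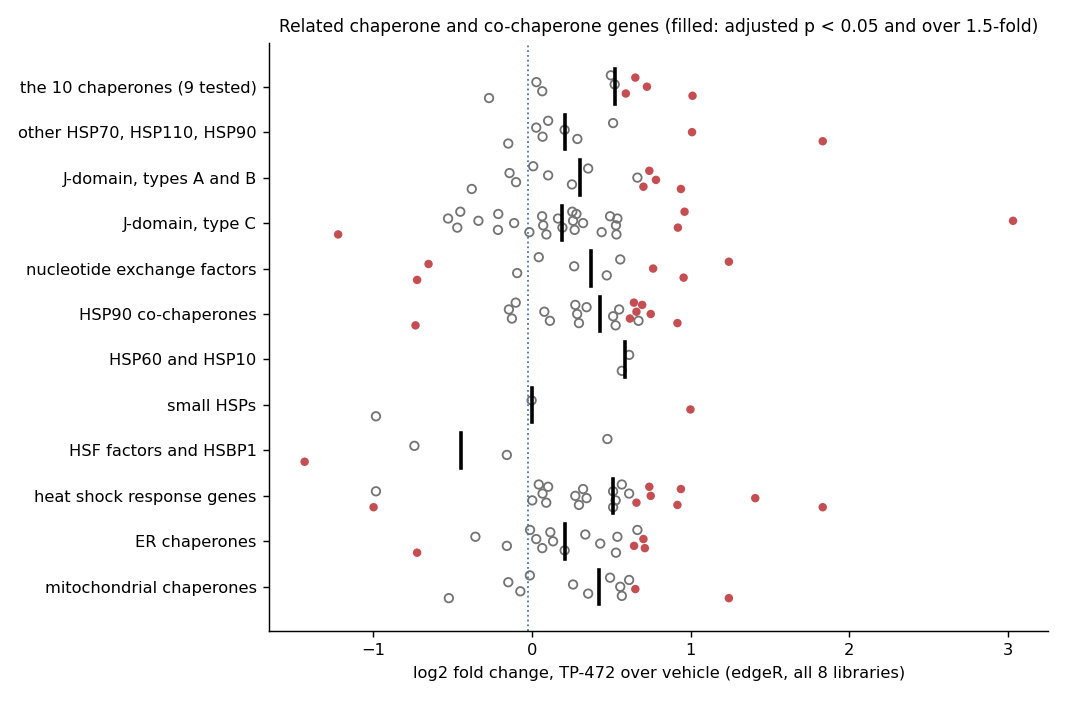
Log2 fold change (x axis) of each tested gene in the 10 chaperones and 11 related lists (rows), filled red where the adjusted p was under 0.05 and the fold over 1.5, with black bars for the list medians and a dotted line for the median of all tested genes (-0.03). With all 8 libraries, all list medians lie above the dotted line except that of the heat shock factors (without vehicle replicate 3 the median of the small HSPs, -0.22, is also below the all-gene median of 0), and the point at 3.03 is DNAJC6, which passed the filter only through the treated libraries.

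Genes whose level over the 8 libraries was most like a member's were found by Pearson's r of log2 CPM among 10816 genes. For HSPA8 these were RPA2 (0.999), TOE1 (0.998) and KARS1 (0.998). For the sum of HSPA1A and HSPA1B they were AKT1S1 (0.993), XRCC3 (0.984) and SMG9 (0.983). For HSP90AA1 they were BTBD7 (0.984), CCDC6 (0.978) and ZNF808 (0.975), and for HSPA5 they included SRP68 (0.982) and RPL32P3 (0.979). All points come from the same 8 libraries in 2 groups, and vehicle replicate 3 weighs in each value, so the values of r are descriptions of these libraries.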

How the data were processed

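RNA of vehicle- and TP-472-treated SK-UT-1 cells (4 libraries each) was sequenced from TruSeq libraries. The authors made the estimated counts with Salmon 1.4.0 on GRCh38 and summed them to genes with GENCODE annotation, and deposited them without normalization. These were rounded and tested with edgeR 4.0.16 (R 4.3.3) with TMM scaling and a filter of more than 1 CPM in at least 4 of 8 libraries, which HSPA1A missed. CPM are relative to the tested genes' TMM-scaled totals. A gene was called at an adjusted p under 0.05 and a fold over 1.5. Two-sided exact permutation tests, on log2 CPM or log2 ratios, used 70 assignments for 4 against 4 libraries and 35 for 3 against 4. Alternatives were limma 3.58.1 (voom), DESeq2 1.42.0, other scalings and filters, the replicate number as a block, leaving out each library and removing a GC trend. Lengths, GC content and 31-base words came from GENCODE release 29, and promoters from RefSeq (GRCh38.p14). The scripts were tested on simulated data. The rule for named genes took all 10 members, up to 6 called genes per related list by absolute log2 fold change, every untested gene, and the 3 genes most like 4 members; exceptions are stated, and some genes the rule names are not reported here. The members and lists were chosen with earlier results of these data known. Permutation values and intervals cover the spread among these libraries only.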

Additional observations from a re-analysis of the deposited data

Results flagged for a closer look

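In groups of 4 libraries, 1 library was set apart when its gap to the nearest other, divided by the range of the group, exceeded Dixon's 95% critical value. This held in 14 of 80 groups examined, where chance gives about 5%, and 9 of the 14 were vehicle replicate 3. All groups come from the same libraries, and those for HSPA1B, its sum with HSPA1A and the ratio of that sum to HSPA8 share counts. They are therefore not independent, and the 5% is only a guide. That library was highest for HSPA1B (gap 0.928), for the sum of HSPA1A and HSPA1B (0.888), for its ratio to HSPA8 (0.883), and for DNAJC4 (0.914), SIL1 (0.848) and HSF4 (0.862). It was lowest for HSPH1 (0.921), BAG5 (0.866) and CHORDC1 (0.948). For CHORDC1 it had 49.65 CPM beside a median of 93.12 CPM in the other vehicle libraries, and for HSPA1B 8.25 CPM beside 4.13 CPM.

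TP-472 replicate 4 was set apart in 4 groups. It was highest for HSP90AA1 (gap 0.931), HSPA5 (0.880) and HSPA1B (0.840), and lowest for HSPA14 (0.831). For HSP90AA1 it had 2486 CPM beside a median of 1973 CPM in the other treated libraries, and for HSPA5 329.7 CPM beside 269 CPM. Vehicle replicate 1 was highest for HSP90AA1 (0.860), with 2509 CPM beside 1932 CPM. What set these libraries apart was not tested.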

How the results depend on the processing

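HSPA8 was called higher in all 22 alternatives (log2 fold change 0.82 to 1.10) and HSPH1 in 21, the exception being removal of the GC trend (0.56), an alternative chosen after seeing the data. HSPA9 and HSPA4 were called in 13 of 22, with ranges of 0.41 to 0.75 and 0.40 to 0.67, and HSP90AB1 and DNAJB1 in 3 and 2. HSPA5, HSP90AA1, HSPA1B and the HSPA1A and HSPA1B sum were called in none of those run, although HSPA5 had an adjusted p of 0.00184 at 0.298 in limma-voom with sample quality weights. HSPA1A was called in the 3 alternatives whose filter let it in, at the few counts given above. No called member changed direction. The count of members called higher, 4, was 2 with sample quality weights, 2 with the GC trend removed (HSPA8 and, not among the 4, DNAJB1), and 2 to 5 when 1 library was left out (2 without vehicle replicate 3, TP-472 replicate 1 or TP-472 replicate 3). The count of all genes called higher was 2678 with DESeq2 against 1693, but out of 33192 genes supplied in place of 14073, since the filter differed too. This is 8.07% against 12.0%. DESeq2's own filter can leave low-count genes without an adjusted p, and these count as not called, so the shares are not directly comparable. The count of all genes called lower was 1387 to 2399 with 1 library left out (1387 without TP-472 replicate 3). The related genes called lower numbered 2 to 7 instead of 6 with 1 library left out (2 without TP-472 replicate 1, 3 or 4). The causes were not tested. Same-numbered libraries did not deviate together (correlations -0.056, 0.115, -0.171 and -0.176). The deviations were taken from each group's mean, on which vehicle replicate 3 weighs. They therefore do not settle whether same-numbered libraries were paired, and the labels do not say. With the replicate block, 3055 genes were called in both directions, and 3 members were higher beside 10.7% of all genes (4 beside 11.9% by the adjusted p alone), HSPA9 having an adjusted p of 0.0543 (edgeR). With 4 libraries per group, exact tests cannot go below 0.0286, and few counts lie behind genes under 1 CPM such as HSPA1A.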
